A study of Mus musculus with 18 samples.

Results

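The replication-dependent histone genes were taken as the protein-coding genes of the GENCODE vM21 annotation (mouse build mm10) whose symbols begin with Hist1h, Hist2h, Hist3h or Hist4h. There were 67 of them among 21951 protein-coding genes, and 3 further Hist symbols that are not protein-coding were outside the rule. They comprised 54 Hist1 genes on chromosome 13, 10 Hist2 genes on chromosome 3, 2 Hist3 genes on chromosome 11 and 1 Hist4 gene on chromosome 6. By product there were 6 genes for the linker histone H1, 18 for H2A, 18 for H2B, 12 for H3 and 13 for H4.

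These genes were examined in unstimulated bone marrow-derived macrophages (BMDM), grown from mouse bone marrow for 7 days with L929 cell supernatant, by chromatin immunoprecipitation and sequencing (ChIP-seq). The genotypes were WT (strain label C57BL6), dystrophin-deficient mdx (Dmdmdx-4Cv), a model of Duchenne muscular dystrophy, and mdxTLR4-/-, which also lacks the receptor TLR4 and carries the strain label Bl6/Bl10. H3K27me3 was measured with 2 ChIP and 2 input samples per genotype, and H3K27ac with 2 WT samples, 2 mdx samples, 1 mdxTLR4-/- sample and 1 input. The labelled age rises by 1 week from each sample to the next, from 6 weeks for the earliest H3K27me3 input to 23 weeks for the mdxTLR4-/- H3K27ac sample, so genotype, strain label and labelled age cannot be told apart. Since these ages form an unbroken run in sample order, whether they are true ages is uncertain. The authors merged replicates before calling peaks, which leaves 1 list per mark and genotype, no spread between mice and no test between genotypes. Every mdxTLR4-/- value for H3K27ac below rests on 1 sample, set against lists pooled from 2 samples for WT and for mdx. Intervals below are exact 95% intervals of read counts and cover counting error only.

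Replication-dependent histone genes supply the core and linker histones that package newly made DNA, and they are transcribed mainly in S phase. They lie in clusters, lack introns for the most part, and make mRNAs that end in a stem-loop in place of a poly(A) tail. H3K27ac marks active promoters and enhancers, while H3K27me3 is laid down by Polycomb and covers silent genes. BMDM grown in macrophage colony-stimulating factor, which L929 supernatant contains, can divide in culture.

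The H3K27ac lists held 12076 to 15665 peaks and the H3K27me3 lists 28143 to 41780. The reads in H3K27ac peaks numbered 274020 in WT, 191629 in mdx and 168487 in mdxTLR4-/-, and in H3K27me3 peaks 8331331, 10199918 and 7358418 in the same order. How deeply the libraries were sequenced is unknown here. The smallest H3K27ac peak of every list held 5 reads, so a gene without a peak is a gene below the calling level and not a gene shown to lack the mark. Of 10 macrophage markers, 10 had H3K27ac within 5 kb of the start in WT, 9 in mdx and 10 in mdxTLR4-/-, and 0 had H3K27me3 there. None of the 5 muscle, 5 fibroblast, 5 neutrophil and 4 erythroid markers had H3K27ac near the start in any list. Of 5 T cell markers 1 had it in each list, and of 5 B cell markers 2, 1 and 1. Of 6 proliferation markers, 4 had H3K27ac near the start in WT, 5 in mdx and 5 in mdxTLR4-/-. These included Mcm2, a subunit of the replicative helicase, with 61, 56 and 40 reads, and Pcna, the sliding clamp of DNA replication, with 30, 19 and 11 reads in WT, mdx and mdxTLR4-/-. Mki67 had 26, 16 and 12 reads and Top2a 17, 6 and 6. Cdk1 had no peak in WT and 8 reads in each of the other lists, and Ccnb1 had no peak in any list. Mki67 was the 1 proliferation marker with H3K27me3 near the start, over 5.61%, 7.61% and 17.6% of the 5 kb on either side.

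Nearly all histone genes had H3K27ac within 5 kb of their starts in every genotype, and most had it over the start itself. A peak lay within 5 kb of the start (at least 1 bp shared) for 65 of 67 genes in WT, 62 in mdx and 65 in mdxTLR4-/-. Over all protein-coding genes the shares were 32.0%, 27.4% and 29.4%, against 97.0%, 92.5% and 97.0% of the histone genes. A peak covered the start itself for 62, 57 and 58 histone genes, while it did so for 23.9%, 20.5% and 20.9% of all genes. In all 3 lists together, 61 histone genes had a peak within 5 kb and 55 had a peak over the start, beside 21.1% and 13.7% of all genes. The histone genes lie close to each other and share peaks, so these counts are not independent of one another. The window of 5 kb can also count a gene through the peak of a neighbour, as for Hist3h2ba and Hist1h1t.

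H3K27me3 was nearly missing from the same starts. A H3K27me3 peak came within 5 kb of 2 histone genes in WT, 3 in mdx and 2 in mdxTLR4-/-, whereas 34.2%, 37.0% and 34.6% of all protein-coding genes had such a peak. Only Hist3h2ba, of the 67 genes, had at least 50% of the 5 kb on either side of its start under H3K27me3, and this held in all 3 lists, where 21.2%, 20.6% and 19.1% of all genes reached that level. The mean share of these windows under H3K27me3 was 1.67%, 1.71% and 1.67% for histone genes and 21.7%, 21.7% and 20.1% for all genes. The histone genes with no H3K27me3 peak within 5 kb in any list numbered 64, beside 60.0% of all genes. The combination of H3K27ac in all 3 lists with H3K27me3 in none was found for 60 histone genes and for 18.0% of all genes. Among the genes with H3K27ac in all 3 lists, the share without H3K27me3 in any was 98.4% for histone genes (60 of 61) and 85.4% for all genes (3957 of 4634).

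The profile of peaks around the gene starts showed the same contrast. At the start itself, 92.5% of histone genes lay under H3K27ac in WT, 85.1% in mdx and 86.6% in mdxTLR4-/-. At 5 kb downstream the shares were 28.4%, 22.4% and 23.9%, against 2.22%, 1.72% and 1.50% for all genes. Since the histone genes lie close together, a position 5 kb from a start can fall under the peak of a neighbouring histone gene. The shares away from the start therefore do not give the width of the mark at single genes.

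**Figure D1:**
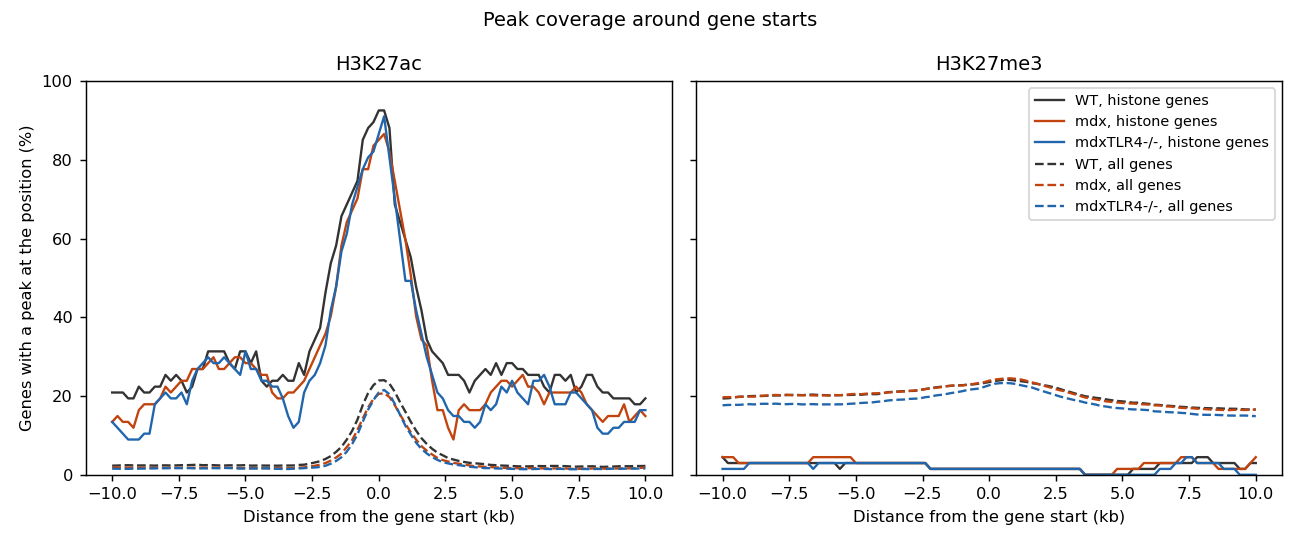
Share of genes (%) with a H3K27ac peak (left) or a H3K27me3 peak (right) at each distance from the gene start (kb, positive downstream), for the 67 histone genes (solid lines) and all 21951 protein-coding genes (dashed lines), in WT, mdx and mdxTLR4-/- BMDM. H3K27ac covered 92.5% (WT), 85.1% (mdx) and 86.6% (mdxTLR4-/-) of histone gene starts, and H3K27me3 covered 1.49% of them in each list.

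The H3K27ac peaks near histone genes fell into 39 distinct regions once overlapping peaks of the 3 genotypes were merged. Of these, 33 covered at least 1 histone gene start, 20 covered 2 or more, and 35 had a peak in all 3 genotypes. A median region held 30 (WT), 27 (mdx) and 23.5 (mdxTLR4-/-) reads, with a range from 5 to 159 reads over the lists. The median region at any protein-coding start held 14, 13 and 11 reads. Per kilobase under peaks, the median histone region held 10.6, 9.41 and 10.9 reads, and the median region at all starts 8.00, 7.50 and 7.14 reads.

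The region with the most reads in WT and mdx lay over Hist1h1c, the gene for linker histone H1.2 (chr13:23736201-23742200). The reads there numbered 159 for WT, 110 for mdx and 118 for mdxTLR4-/-. In unscaled reads the lists with the mdx allele were lower here, with ratios to WT of 0.692 (interval 0.538 to 0.888) for mdx and 0.742 (0.580 to 0.948) for mdxTLR4-/-, while the reads in all H3K27ac peaks stood at 0.699 and 0.615 of WT. The peaks also differed in width, at 6.0, 2.8 and 3.4 kb, and read density went the other way, with 26.5, 39.3 and 34.7 reads per kb and ratios to WT of 1.48 (1.152 to 1.902) and 1.31 (1.02 to 1.67). Hist1h1e, for H1.4, shared a region with the recorded start of Hist1h2be that held 74, 46 and 64 reads, or 26.4, 14.4 and 24.6 per kb. Hist1h1b, for H1.5, shared a region with Hist1h3i that held 32, 17 and 17 reads, or 6.96, 4.47 and 7.08 per kb. Hist1h1d, for H1.3, had no peak over the start of its gene record, but RefSeq places its start 1770 bp away, inside a region with 31, 27 and 32 reads. Hist1h1a, for H1.1, lay in a region with Hist1h4a and Hist1h3a of 24, 32 and 14 reads, and the mdxTLR4-/- peak ended 266 bp short of its start. The regions at the somatic H1 genes thus covered a wide range of H3K27ac, from 24 to 159 reads in WT. Those of Hist1h1e, Hist1h1b and Hist1h1a also cover starts of other histone genes, so these are not reads of single genes.

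The region with the next most reads in WT and mdx, and the most in mdxTLR4-/-, spanned 5 starts, those of Hist1h2ae, Hist1h2bg, Hist1h2bf, Hist1h2ad and Hist1h3d (chr13:23569201-23577000). Its reads numbered 95 for WT, 93 for mdx and 133 for mdxTLR4-/-. WT and mdx were close, with a ratio of 0.979 (0.728 to 1.32), and mdxTLR4-/- was higher than both, at 1.40 times WT (1.07 to 1.84) and 1.43 times mdx (1.09 to 1.88). Per kb of peak (6.8, 6.8 and 7.4 kb) mdxTLR4-/- was at 1.29 times WT (0.981 to 1.69), an interval that includes 1, and at 1.31 times mdx (1.00 to 1.73).

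Many H2A and H2B genes are transcribed away from each other out of a short shared promoter. There were 13 head-to-head pairs of histone genes with starts under 1000 bp apart, and 12 of them joined a H2A with a H2B gene. Their starts were 176 to 660 bp apart, with a median of 268 bp. In 12 of the 13 pairs both starts fell in the same H3K27ac region. The exception was Hist1h2ba with Hist1h2aa, the pair that makes testis H2B and H2A, which had no peak over either start in any list. The median histone region had 2800 (WT), 2800 (mdx) and 2600 bp (mdxTLR4-/-) under peaks. Starts this close would therefore mostly share a region, and the count adds little to the distances.

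The promoters of the histone genes with the most H3K27ac are shown for 1 gene of each class, as the 250 bases before the RefSeq start (build GRCm38.p6), which the RefSeq promoter table gave for 62 of the 67 genes. Hist1h3f, Hist1h2bc, Hist1h3a, Hist2h2be and Hist2h4 were not matched. Where genes of a class tied within a region, the gene lying first on the chromosome was used, except that Hist1h2bf was used in place of Hist1h2bg, whose promoter overlaps that of Hist1h2ae on the other strand. Capitals mark 5 motifs known from histone promoters, searched on both strands: the TATA box (TATAAA), the CCAAT box (CCAAT), the octamer of H2B promoters (ATTTGCAT), the H1 box (AAACACA) and the GC box (GGGCGG). The coordinates are chr13:23738557-23738806 (plus strand), chr13:23571221-23571470 (minus), chr13:23574208-23574457 (minus), chr13:23575513-23575762 (plus) and chr13:21811496-21811745 (plus).

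Hist1h1c: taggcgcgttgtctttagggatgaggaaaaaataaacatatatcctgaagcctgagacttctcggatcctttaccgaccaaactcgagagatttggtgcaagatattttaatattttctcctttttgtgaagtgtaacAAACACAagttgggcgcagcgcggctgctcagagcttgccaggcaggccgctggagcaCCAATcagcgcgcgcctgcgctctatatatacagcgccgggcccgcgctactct
Hist1h2ae: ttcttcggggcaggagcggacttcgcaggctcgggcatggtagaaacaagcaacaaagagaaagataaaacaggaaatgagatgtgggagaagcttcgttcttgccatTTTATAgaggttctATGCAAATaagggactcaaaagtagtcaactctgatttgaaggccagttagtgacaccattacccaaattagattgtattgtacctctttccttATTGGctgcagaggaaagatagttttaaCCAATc
Hist1h2bf: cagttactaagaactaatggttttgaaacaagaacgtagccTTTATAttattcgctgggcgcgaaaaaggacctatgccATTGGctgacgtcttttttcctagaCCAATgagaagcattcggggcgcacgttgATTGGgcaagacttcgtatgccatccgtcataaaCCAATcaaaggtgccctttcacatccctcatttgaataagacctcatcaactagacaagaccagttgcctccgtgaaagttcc
Hist1h3d: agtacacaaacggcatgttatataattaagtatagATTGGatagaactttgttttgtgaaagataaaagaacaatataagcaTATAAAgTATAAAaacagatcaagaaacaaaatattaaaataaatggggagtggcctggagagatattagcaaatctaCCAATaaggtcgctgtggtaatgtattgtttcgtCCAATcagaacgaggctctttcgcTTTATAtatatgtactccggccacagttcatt
Hist1h4m: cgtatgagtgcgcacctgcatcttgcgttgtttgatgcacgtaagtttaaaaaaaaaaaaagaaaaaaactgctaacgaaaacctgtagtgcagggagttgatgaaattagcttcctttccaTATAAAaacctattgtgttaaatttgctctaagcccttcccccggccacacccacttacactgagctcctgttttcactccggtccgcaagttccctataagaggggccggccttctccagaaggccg

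Motif content differed between the classes. A CCAAT box, the binding site of NF-Y, stood in 51 of the 62 matched promoters (82.3%), against 33.8% of the 32851 promoters of the table. It was present in all 6 H1, all 18 H2A and all 16 H2B promoters matched, in 8 of 10 H3 promoters and in 3 of 12 H4 promoters. The H1 box stood in 5 of 6 H1 promoters and in 6.25% of all promoters. The octamer stood in 7 of 18 H2A and 6 of 16 H2B promoters, in 0 of the others and in 1.60% of all promoters. A TATA box was found in 29 of 62 (46.8%) against 12.4% of all, and a GC box in 20 of 62 (32.3%) against 32.7% of all. The GC box was found in 9 of 12 H4 promoters and in 0 of 16 H2B promoters. Head-to-head partners share much of these sequences, several genes are near copies of each other, and a match is only a description of the letters.

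The H3 and H4 genes outside these large regions held fewer reads. Hist1h4d had a region of 70, 37 and 52 reads (chr13:23581401-23587800), in which the mdx peak began 2803 bp downstream of the start. The ratio of mdx to WT there was 0.529 (0.345 to 0.798), from peaks of 3.0 kb in mdx and 6.4 kb in WT, while per kb it was 1.13 (0.736 to 1.70), and a further RefSeq start of Hist1h2be lies in the same region. Hist1h4k had 7 (WT), 0 (mdx) and 11 (mdxTLR4-/-) reads. Hist1h4j had 14 reads in WT and no peak in mdx or mdxTLR4-/-, where the nearest peaks were 12664 and 12464 bp away. Hist1h4c had 7 (WT), 0 (mdx) and 8 (mdxTLR4-/-) reads. Hist1h4b had 8, 15 and 7 reads. Among the classes, H4 had the largest fall in the number of starts covered in mdx. Over all protein-coding genes the share of starts covered was also lower, at 23.9% in WT, 20.5% in mdx and 20.9% in mdxTLR4-/-. A peak covered 13 of 13 H4 starts in WT, 9 in mdx and 11 in mdxTLR4-/-, while all 12 H3 starts were covered in WT and mdx and 11 in mdxTLR4-/-. Of the H4 genes whose start was not covered in mdx, Hist1h4j, Hist1h4k and Hist1h4c had peaks of only 7 to 14 reads, close to the smallest peak called. Hist1h4d kept a mdx peak in its region, so the counts do not show a change particular to H4.

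Some of the largest regions are copies of each other, so their reads could not be placed with certainty. In the region of Hist1h2bq, Hist1h2ao and Hist1h4m, 95.7% of all 50-base words were also found elsewhere in the genome, and 97.5% in the region of Hist1h4n, Hist1h2ap and Hist1h2br. These 2 regions held 73, 66 and 58 reads and 68, 67 and 51 reads. On chromosome 3 the mirrored regions of Hist2h3c2 with Hist2h2aa2 and of Hist2h2aa1 with Hist2h3c1 repeated 43.2% and 50.1% of their words, and held 58, 65 and 44 reads and 82, 90 and 61 reads. The region of Hist2h3b with Hist2h2bb repeated 49.1%. At Hist1h1c the share of such words was 2.17% and at the 5-gene region 20.5%. The methods name default Bowtie2 settings for the H3K27me3 reads. Those settings keep 1 placement per read, picked at random where several are equally good. The settings for the H3K27ac reads are not given in the sources used here.

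**Figure D2:**
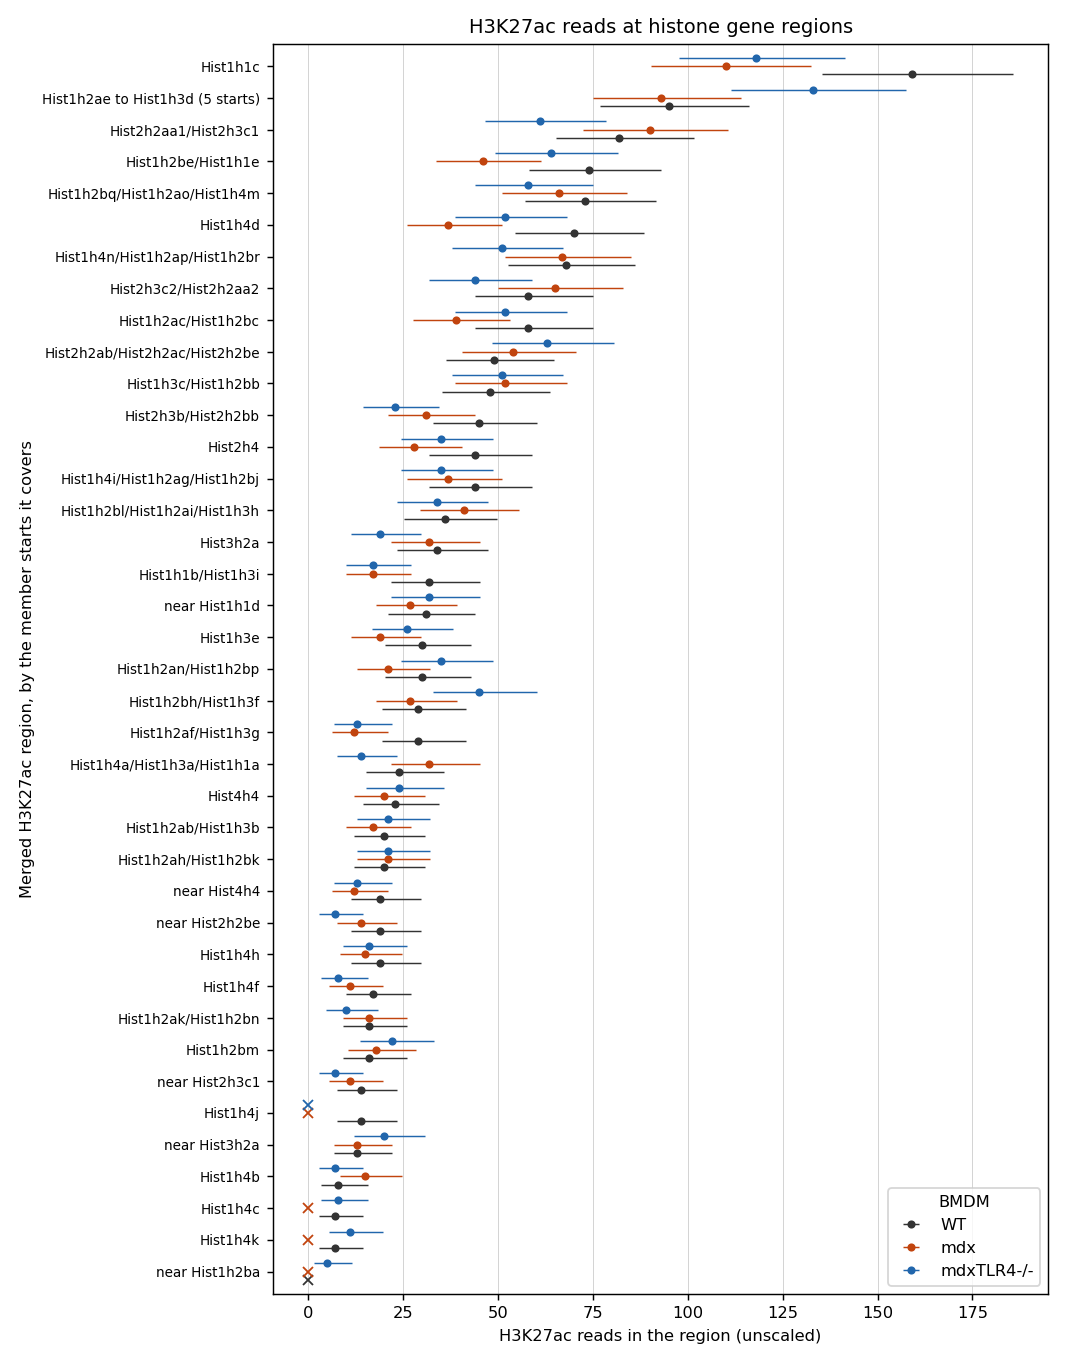
H3K27ac reads (unscaled, x axis) in each of the 39 merged regions near histone genes, ordered by the WT reads and named by the histone gene starts they cover, in WT, mdx and mdxTLR4-/- BMDM. Points are read counts with exact 95% Poisson intervals and crosses mark lists with no peak; Hist1h1c held the most reads in WT (159) and the region of 5 starts the most in mdxTLR4-/- (133).

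Summed over the 39 regions, the lists held 1474 (WT), 1226 (mdx) and 1275 (mdxTLR4-/-) reads, under 125.4, 104.0 and 103.2 kb of peaks. The ratios were 0.832 (0.770 to 0.898) for mdx against WT, 0.865 (0.802 to 0.933) for mdxTLR4-/- against WT and 1.04 (0.961 to 1.13) for mdxTLR4-/- against mdx. Over all regions at protein-coding starts the same ratios of summed reads were 0.735, 0.672 and 0.914, and the median ratios of regions called in both lists were 0.796, 0.692 and 0.867, beside 0.870, 0.842 and 1.07 for histone regions. A region without a peak adds no reads to a sum, so the sums also reflect which peaks were called. Such regions numbered 1 (WT), 4 (mdx) and 1 (mdxTLR4-/-) of the 39 histone regions. At protein-coding starts they numbered 1589, 2670 and 2191 of 7885. Per kilobase under peaks, the histone regions held 11.8 (WT), 11.8 (mdx) and 12.4 (mdxTLR4-/-) reads, with ratios to WT of 1.00 (0.929 to 1.08) and 1.05 (0.974 to 1.13), both intervals including 1. The direction of the first 2 comparisons depended on scaling: divided by the reads in all peaks of each list, mdx became 1.19 times WT and mdxTLR4-/- 1.41 times WT. Divided by the median ratio of regions at protein-coding starts they became 1.04 (0.967 to 1.13) and 1.25 (1.16 to 1.35) times WT, and the first interval includes 1. This division sets a ratio of sums, in which uncalled regions add no reads, against a median over regions called in both lists. Its intervals cover the histone counts only. Like for like, mdx against WT was 0.832 beside 0.735 in sums and 0.870 beside 0.796 in medians, so histone regions were lowered less in both. The unscaled reads therefore show fewer H3K27ac reads at histone genes in mdx and mdxTLR4-/- than in WT, but a higher share of the reads in peaks.

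Region by region, only regions with a peak in both lists of a comparison were compared, since a missing peak is not a count of 0. For mdx against WT the interval of the read ratio lay below 1 for 5 of 35 histone regions and above 1 for 0, where 14.8% and 0.707% of the regions at protein-coding starts called in both lists did so. The 5 were those of Hist1h1b with Hist1h3i, Hist1h2af with Hist1h3g, Hist1h4d, Hist1h2be with Hist1h1e, and Hist1h1c. For mdxTLR4-/- against WT it lay below 1 for 5 of 37 and above 1 for 1, the region of 5 starts, beside 21.3% and 0.410%. The 5 were those of Hist1h1b with Hist1h3i, Hist1h2af with Hist1h3g, Hist1h1c, Hist2h3b with Hist2h2bb, and a region near Hist2h2be. For mdxTLR4-/- against mdx it lay below 1 for 2 of 35 and above 1 for 2, beside 7.08% and 1.66%. Both comparisons with WT use the same list, and these intervals are for unscaled reads and are not adjusted for the number of regions.

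Peak widths differed between the lists, and the calls changed when reads were divided by the length under peaks. Per kb, mdx against WT was below 1 for 3 regions and above 1 for 3, beside 12.0% and 4.24% of regions at protein-coding starts. Of the 5 regions with fewer reads in mdx, that of Hist1h2be with Hist1h1e was also lower per kb, at 0.544 (0.368 to 0.796), and that of Hist1h1c was higher. For mdxTLR4-/- against WT, 4 regions were below 1 and 6 above, beside 12.1% and 2.85%. None of the 5 with fewer reads in mdxTLR4-/- was among these 4. For mdxTLR4-/- against mdx, 2 were below 1 and 2 above, beside 7.10% and 5.20%.

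The histone genes of the testis stood apart from the rest of the Hist1 cluster. Hist1h2ba (chr13:23933773-23934156) and Hist1h2aa (chr13:23934462-23934851) make TH2B and TH2A, variants of sperm precursors, and Hist1h1t (chr13:23695814-23696725) makes the testis linker histone H1t. Neither Hist1h2ba nor Hist1h2aa had a H3K27ac peak within 5 kb in WT or mdx, where the nearest peaks were 92.2 and 169.6 kb from Hist1h2ba. In mdxTLR4-/- a peak of 5 reads (chr13:23933601-23934000) lay 156 bp from the start of Hist1h2ba, and 37.0% of its 50-base words recur in the genome. Hist1h1t had no peak over its start in any list; the 7 reads in WT and 8 in mdxTLR4-/- within 5 kb belong to the region over the neighbouring Hist1h4c. Hist1h2ba also had the only H3K27me3 peak near a Hist1 start, in mdx, where a peak of 117 reads covered 2.45% of its window. In WT and mdxTLR4-/- the corresponding H3K27me3 peaks, of 66 and 50 reads, ended 5.36 and 6.36 kb from the start, so the 3 lists differed by the edge of a peak and not by its presence. Most of the window of Hist1h2ba and Hist1h2aa thus held neither mark.

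The promoters of the testis genes are shown to set them beside those above, with the same motifs in capitals. They are chr13:23695561-23695810 (plus), chr13:23934187-23934436 (plus) and chr13:23934157-23934406 (minus), and the starts of the last 2 genes are 306 bp apart in the gene records, so that their promoters overlap. All 3 held a CCAAT box, the H1 box was found in all 3, and the octamer in Hist1h2aa and Hist1h2ba.

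Hist1h1t: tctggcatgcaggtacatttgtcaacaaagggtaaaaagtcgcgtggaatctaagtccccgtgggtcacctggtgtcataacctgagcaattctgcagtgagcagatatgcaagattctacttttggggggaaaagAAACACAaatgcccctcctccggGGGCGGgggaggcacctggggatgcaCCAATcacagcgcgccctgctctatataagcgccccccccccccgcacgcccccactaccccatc
Hist1h2aa: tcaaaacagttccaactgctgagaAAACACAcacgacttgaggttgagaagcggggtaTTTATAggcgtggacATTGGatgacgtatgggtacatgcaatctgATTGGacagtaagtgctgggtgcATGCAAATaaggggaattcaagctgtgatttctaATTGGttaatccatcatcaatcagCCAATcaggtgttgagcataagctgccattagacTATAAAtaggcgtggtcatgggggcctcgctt
Hist1h2ba: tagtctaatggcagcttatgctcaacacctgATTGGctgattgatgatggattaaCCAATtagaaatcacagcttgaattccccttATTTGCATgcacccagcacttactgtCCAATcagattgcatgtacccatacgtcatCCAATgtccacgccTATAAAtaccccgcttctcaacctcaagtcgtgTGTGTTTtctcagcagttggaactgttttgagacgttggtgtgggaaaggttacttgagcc

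The Hist3 pair was the one place where a histone gene lay in a H3K27me3 domain. Hist3h2ba, which makes a H2B (chr11:58948920-58949533, plus strand), was covered over its whole body in all 3 lists. The domain ran over 9.0 kb in WT with 269 reads, 10.2 kb in mdx with 332 reads and 10.0 kb in mdxTLR4-/- with 268 reads. Its downstream edge was at position 58952400 in every list, and 84.8% of the window of Hist3h2ba lay under it. Per kilobase the domain held 29.9, 32.5 and 26.8 reads, a ratio to WT of 1.09 (0.924 to 1.28) for mdx and 0.897 (0.754 to 1.07) for mdxTLR4-/-, and the interval includes 1 in both. Against mdx, mdxTLR4-/- was at 0.823 (0.698 to 0.970) per kb, where the median H3K27me3 peak held 28.3 reads per kb in mdx and 23.7 in mdxTLR4-/-. In reads it was at 0.807 (0.685 to 0.951), where the reads in all H3K27me3 peaks of these lists stood at a ratio of 0.721.

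Its neighbour Hist3h2a, which makes a H2A (chr11:58954685-58956830, plus strand), starts 2.29 kb past the edge of that domain. A H3K27ac peak lay over the start of Hist3h2a in all 3 lists, with 34 (WT), 32 (mdx) and 19 (mdxTLR4-/-) reads, and a further peak downstream held 13, 13 and 20 reads. The ratio of mdxTLR4-/- to WT at the start was 0.559 (0.301 to 1.01), and per kb it was 0.869 (0.468 to 1.57). The H3K27ac peak began 4481 bp from the start of Hist3h2ba in WT and mdx and 5681 bp from it in mdxTLR4-/-, so Hist3h2ba counted as having H3K27ac within 5 kb in WT and mdx through the peak of its neighbour. No list had H3K27ac over Hist3h2ba itself. The domain over Hist3h2ba and the peak over the start of Hist3h2a did not overlap in any list.

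**Figure D3:**
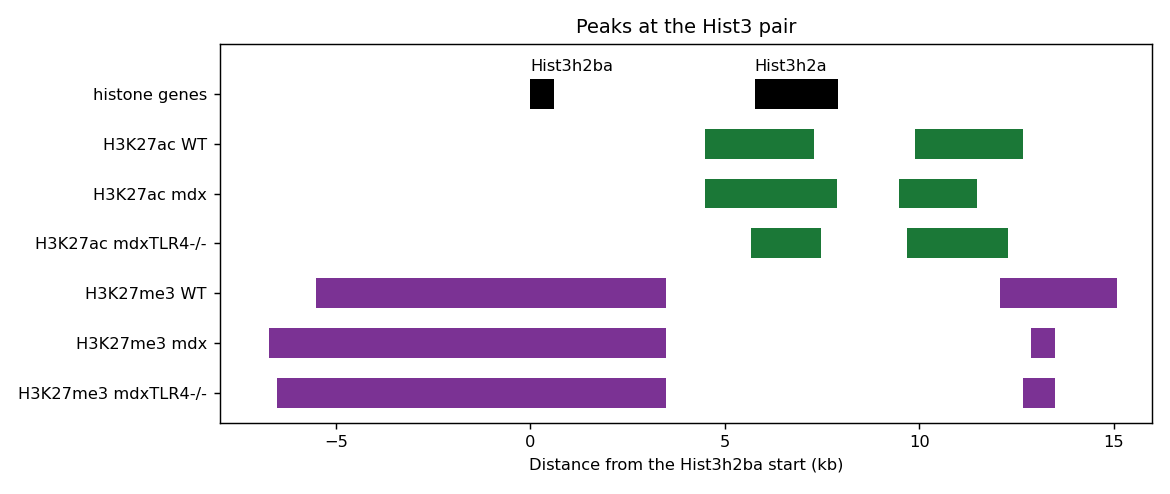
Peaks at the Hist3 pair by distance from the Hist3h2ba start (kb), with the genes in black, H3K27ac peaks in green and H3K27me3 peaks in purple for WT, mdx and mdxTLR4-/- BMDM. Hist3h2ba lies inside a H3K27me3 domain of 9.0 to 10.2 kb, and Hist3h2a lies under H3K27ac 2.29 kb past its edge, in all 3 lists.

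The promoters of both genes are shown because the neighbours carry different marks. They are chr11:58948661-58948910 and chr11:58954435-58954684, on the plus strand, and were chosen after these values were seen. Hist3h2ba held 4 CCAAT boxes and 2 TATA boxes, and Hist3h2a held 2 CCAAT boxes and an octamer.

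Hist3h2ba: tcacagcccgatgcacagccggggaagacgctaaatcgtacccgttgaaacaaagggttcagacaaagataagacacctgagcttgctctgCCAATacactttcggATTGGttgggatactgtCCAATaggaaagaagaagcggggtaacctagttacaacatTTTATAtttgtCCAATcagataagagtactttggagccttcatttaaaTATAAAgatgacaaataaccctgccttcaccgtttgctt
Hist3h2a: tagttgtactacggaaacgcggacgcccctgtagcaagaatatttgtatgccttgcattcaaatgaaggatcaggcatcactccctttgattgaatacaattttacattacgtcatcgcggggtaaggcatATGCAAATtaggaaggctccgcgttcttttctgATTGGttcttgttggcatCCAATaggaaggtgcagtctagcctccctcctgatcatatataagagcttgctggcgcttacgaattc

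Hist4h4, the isolated H4 gene on chromosome 6 (chr6:136801553-136804415, minus strand), had H3K27ac over its start with 23 (WT), 20 (mdx) and 24 (mdxTLR4-/-) reads. A further region within 5 kb with 19, 12 and 13 reads covers the start of H2afj, a replication-independent H2A gene. The nearest H3K27me3 peaks were 7.62, 5.62 and 7.22 kb from the start of Hist4h4. The ratios of the lists at Hist4h4 were 0.870 (0.453 to 1.66) for mdx and 1.04 (0.564 to 1.93) for mdxTLR4-/- against WT, so no difference was detectable at this number of reads.

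The 10 Hist2 genes all had H3K27ac over the start in all 3 lists. Beside the mirrored regions given above, the region of Hist2h2ab, Hist2h2ac and Hist2h2be held 49, 54 and 63 reads, that of Hist2h4 held 44, 28 and 35, and that of Hist2h3b with Hist2h2bb held 45, 31 and 23. The last was lower in mdxTLR4-/- than in WT, with a ratio of 0.511 (0.295 to 0.863), but its peaks measured 3.6 kb in mdxTLR4-/- and 7.2 kb in WT, and per kb the ratio was 1.02 (0.590 to 1.73). H3K27ac covered 41.1%, 43.1% and 38.3% of the 50.3 kb from the first to the last Hist2 gene, and H3K27me3 covered 0%. Fcgr1, a macrophage marker of the list that lies past this cluster, had 31, 33 and 19 H3K27ac reads.

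Over whole clusters, the H3K27me3 peaks of the Hist1 span lay between the groups of histone genes and not within them, at a cover near or below that of the genome. With members joined where they lay under 200 kb apart, Hist1 formed 2 blocks, from Hist1h2bl to Hist1h2bj (chr13:21715763-22043676) and from Hist1h4h to Hist1h2aa (chr13:23531050-23934851). H3K27me3 covered 6.53%, 7.50% and 6.71% of the one with 23 genes and 4.61%, 4.36% and 3.02% of the one with 31 genes in WT, mdx and mdxTLR4-/-. The genome as a whole was covered at 9.26%, 9.56% and 8.22%. With the limit at 50 kb there were 8 groups, and 7 of them, with 65 genes over 358.9 kb, held no base of H3K27me3 in any list. The Hist3 pair was the eighth. H3K27ac covered 31.7%, 27.1% and 27.1% of those 7 groups, against 1.22%, 0.925% and 0.769% of the genome.

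All H3K27me3 of the Hist1 span thus lay in the stretches between the groups. The stretch of 197.6 kb from Hist1h2br to Hist1h2ah was covered at 10.8%, 12.4% and 11.1%, and it holds Prss16, a thymus protease, with 97.4%, 83.4% and 91.4% of its start window under H3K27me3, and Pom121l2, with 64.0%, 54.0% and 44.0%. The stretch of 58.9 kb between Hist1h1e and Hist1h2ac, which holds no other protein-coding gene, was covered at 9.51%, 6.79% and 5.43%. The stretch of 169.4 kb between Hist1h1a and Hist1h2ba was covered at 7.68%, 8.03% and 5.31%. H3K27ac was not missing from all of these stretches. It covered 2.61%, 0.810% and 0.791% of the stretch of 197.6 kb and 8.56%, 2.11% and 1.43% of that of 58.9 kb. The genome was covered at 1.22%, 0.925% and 0.769%. Of the stretch of 169.4 kb, H3K27ac covered 0.118% or less. The 1487 kb between the 2 blocks were covered at 5.04%, 6.39% and 4.85% by H3K27me3 and at 0.724%, 0.899% and 0.778% by H3K27ac.

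**Figure D4:**
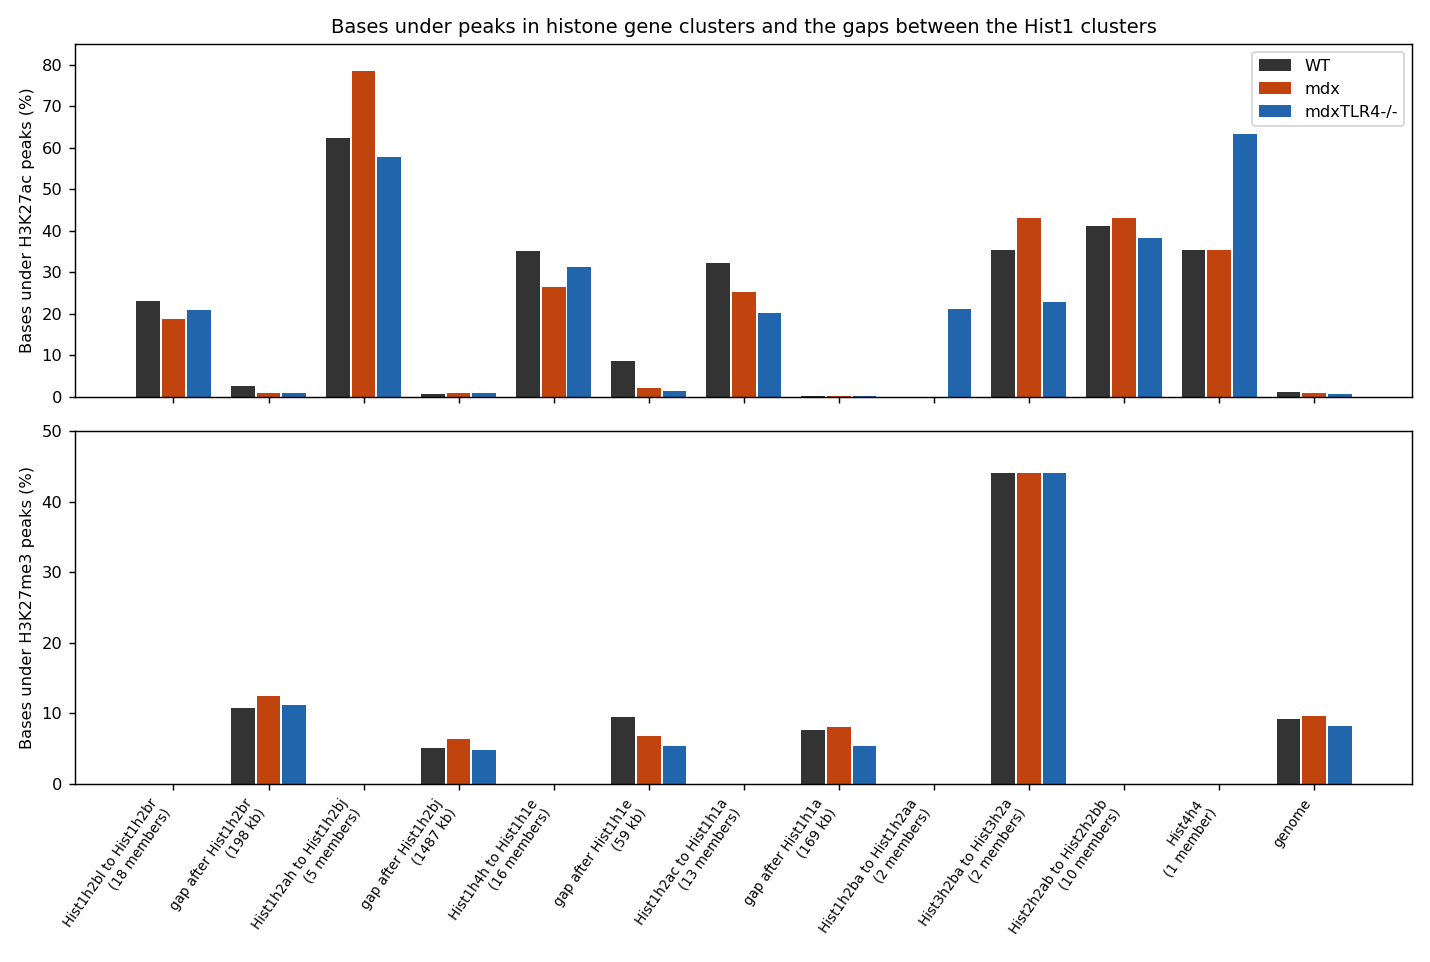
Bases under H3K27ac peaks (top, %) and H3K27me3 peaks (bottom, %) in the 8 groups of histone genes split at 50 kb, in the gaps between the Hist1 groups and in the genome, for WT, mdx and mdxTLR4-/- BMDM. Among the groups, H3K27me3 is above 0 only at the Hist3 pair (44.0%), while the gaps between Hist1 groups lie between 4.85% and 12.4%.

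The distance from the histone genes to H3K27me3 was moderate. The median histone gene start was 48.2 kb from the nearest H3K27me3 peak in WT, 45.5 kb in mdx and 45.8 kb in mdxTLR4-/-, and the farthest was 91.9, 86.5 and 86.2 kb away. For all protein-coding genes the medians were 22.2, 16.0 and 19.7 kb, with upper quartiles of 112.9, 79.4 and 92.1 kb. The group of 16 genes from Hist1h4h to Hist1h1e had its nearest H3K27me3 peak 26.6 kb away in WT, 9.44 kb in mdx and 41.0 kb in mdxTLR4-/-, since the peaks between Hist1h1e and Hist1h2ac lay at different places in the 3 lists.

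**Figure D5:**
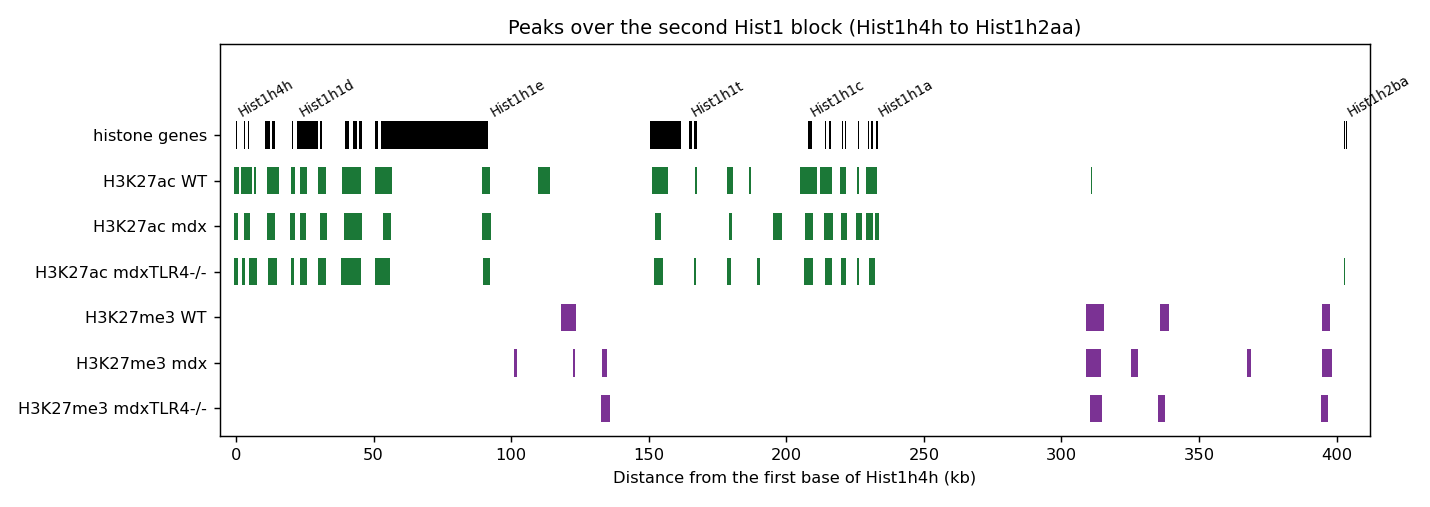
Peaks over the second Hist1 block, from Hist1h4h to Hist1h2aa, by distance from the first base of Hist1h4h (kb), with histone gene records in black, H3K27ac peaks in green and H3K27me3 peaks in purple for WT, mdx and mdxTLR4-/- BMDM. H3K27ac lies mostly on the groups of histone genes, with a single peak of 5 reads, in mdxTLR4-/-, at the testis pair at the far right. The H3K27me3 peaks lie in the gaps of 58.9 and 169.4 kb, which also hold WT H3K27ac peaks of 9 and 5 reads.

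The histone genes outside the replication-dependent set were more varied. Of 11 replacement and variant histone genes, 8 had H3K27ac within 5 kb of the start in WT, 7 in mdx and 7 in mdxTLR4-/-. H3K27me3 lay there for 3 in each list. The shares of all protein-coding genes were 32.0%, 27.4% and 29.4% for H3K27ac and 34.2%, 37.0% and 34.6% for H3K27me3. H3f3b, for histone H3.3, had 120, 109 and 81 H3K27ac reads, and H3f3a, the other H3.3 gene, had 23, 26 and 34. H2afz, for H2A.Z, had 36, 18 and 18. The linker histone genes H1f0 and H1fx and the macroH2A gene H2afy2 were the 3 with H3K27me3. At H1fx it covered 100%, 92.4% and 90.4% of the window, at H2afy2 100%, 82.0% and 100%, and at H1f0 45.5%, 41.5% and 66.0%. H1f0 also had a H3K27ac peak of 10 reads in mdxTLR4-/- only.

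The factors that transcribe histone genes and process their mRNA were examined as a list of 20, of which 19 matched a gene. The symbol Symk, as listed, matched none, and symplekin (Sympk) was not examined. H3K27ac lay within 5 kb of the start of 14 in WT, 10 in mdx and 11 in mdxTLR4-/-, beside 32.0%, 27.4% and 29.4% of all protein-coding genes. H3K27me3 lay there for 0, 1 and 0, beside 34.2%, 37.0% and 34.6%. Npat, the coactivator of histone transcription, had 15, 18 and 6 H3K27ac reads. Slbp, which binds the stem-loop of histone mRNA, had 53, 41 and 26, and the cleavage factor Cpsf2 had 54, 66 and 37. Nfya, a subunit of the CCAAT-binding factor NF-Y, had 46, 48 and 39 reads. Lsm10 and Lsm11, of the U7 particle that cuts histone mRNA, had no H3K27ac peak near the start in any list. Ccne1, for cyclin E1, had no H3K27ac there and was the gene with H3K27me3, over 3.34% of its window in mdx.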

How the data were processed

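Native ChIP-seq for H3K27me3 and H3K27ac was done on micrococcal nuclease-digested chromatin of unstimulated BMDM. Per the labels and the methods, the authors trimmed reads with cutadapt 1.15, mapped them to mm10 with Bowtie2 2.3.4, merged replicates and called peaks with SICER 2.0 (windows of 200 bp, gaps up to 600 bp, FDR 0.01, as stated for H3K27me3). The deposited values are counts of ChIP reads per peak, not described as scaled for depth or length; the values are whole numbers and the peaks start on a 200 bp grid. The lists pool the replicates, except that of H3K27ac in mdxTLR4-/-, which rests on 1 sample. Each genotype is thus compared as 1 list, with no p-value, and replicate spread cannot be seen. Low and repeated sequence can hide reads, since a missing peak is a count below the calling level. The input samples were not used here.

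Peaks were set against gene-record starts of GENCODE vM21 with a minimum overlap of 1 bp and windows of 5 kb on each side. H3K27ac peaks of the 3 genotypes that shared at least 1 bp were merged into regions and their reads summed, with exact Clopper-Pearson intervals of ratios and exact Poisson intervals of counts at the 95% level. Ratios of single regions were counted only where both lists had a peak, for reads and for reads per kb under peaks; the latter was added after the data were seen. Blocks joined histone genes at gaps under 200 kb. Repeated words were 50-base stretches counted on both strands of GRCm38.p6, a length chosen here since the read length is not given in the sources used here. Promoters came from RefSeq (GRCm38.p6). Python 3.11.15, numpy 2.4.6 and scipy 1.17.1 were used, and the functions were tested on simulated peaks. The histone genes and all other lists were chosen with earlier results of these data known. Named genes were those with no H3K27ac near the start, those whose presence of a mark differed between lists, those with at least 50% of the window under H3K27me3, the members of the 8 regions with the most and the 4 with the fewest WT reads, the testis genes and every Hist3 and Hist4 gene. Others in the text were named after their values were seen. Other windows, thresholds, scalings and peak subsets were tried as alternatives.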

Additional observations from a re-analysis of the deposited data

How the results depend on the processing

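The 33 values set against alternatives (counts of histone genes with a mark, summed H3K27ac ratios, counts of regions, H3K27me3 cover) gave 147 alternative values, of which 122 stayed close, 19 moved and 6 changed direction. A change of direction means only that the ratio itself crossed 1, and all were in H3K27ac ratios to WT. Scaled to reads in peaks, mdx against WT went from 0.832 to 1.19 and mdxTLR4-/- against WT from 0.865 to 1.41. Relative to the median region at protein-coding starts they were 1.04 and 1.25, and per kb under peaks, added after the data were seen, 1.00 and 1.05. The interval included 1 for mdx relative to the median region (0.967 to 1.13). It also did so per kb for mdx (0.929 to 1.08) and for mdxTLR4-/- (0.974 to 1.13). Per kb the difference was thus lost rather than reversed. Relative to the median region, a ratio of sums was divided by a median of ratios, so whether the mdx difference was lost or reversed cannot be told. Per kb, the regions whose interval lay below 1 in mdx against WT went from 5 to 3 and those above 1 from 0 to 3, and those above 1 in mdxTLR4-/- against WT from 1 to 6. Scaled to the 1st percentile of read density, mdxTLR4-/- was at 0.757 of WT and 0.910 of mdx. The ratio of mdxTLR4-/- to mdx, 1.04 unscaled, was 1.18 scaled to reads in peaks, 1.20 relative to the median region, and 1.14 without the 5 regions of which over 40% of words recur in the genome, an alternative added after the data were seen. Which scaling is right was not tested, since the depth is unknown here. H3K27me3 cover of the Hist1 blocks was 0% in each list when blocks were split at 50 kb, since the split removes the gaps that hold the peaks. With a stricter read density it was 1.42% in WT, 4.43% in mdx and 3.53% in mdxTLR4-/-, from 5.47%, 5.77% and 4.67%. It was 5.00% in mdx with peaks of at least 2 kb and 3.85% in mdxTLR4-/- with the same number of peaks per list. At 20% in place of 50% of the window, 2 genes were covered by H3K27me3 in each list, Hist3h2a being the added one. With RefSeq starts, also added after the data were seen, 60, 57 and 60 of the 62 matched genes had H3K27ac near the start. No paired analysis was possible because the authors merged replicates before calling peaks, and leaving out a replicate was not run for the same reason.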

Other observations

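Inside the span of the Hist1 genes lie 49 other protein-coding genes, 36 of them Vmn1r vomeronasal receptor genes, which are used in the sensing of pheromones. None of the 36 had H3K27me3 within 5 kb of the start in any list, and H3K27ac lay near 1 in WT, 0 in mdx and 1 in mdxTLR4-/-. Of the other 13, the 4 Slc17a transporter genes had H3K27me3 near 2 starts in WT, 1 in mdx and 2 in mdxTLR4-/-, with 46.3%, 46.3% and 28.3% of the window at Slc17a3. Hfe, the hemochromatosis gene that lies among the histone genes, had H3K27ac over its start with 21, 19 and 6 reads in WT, mdx and mdxTLR4-/-. Btn2a2, a butyrophilin gene, had H3K27me3 over 0%, 45.4% and 44.0% of its window, and Btn1a1 over 19.0%, 42.0% and 24.0%.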
